A study of Mus musculus with 18 samples.

Results

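Whole testis of ICR mice that had received a high-fat diet with the FMT labelled as control (HFD-conFMT, 3 libraries) was compared with untreated control testis (3 libraries), gene by gene, by RNA sequencing. These are 6 of the 18 libraries of the study. The test covered the 13105 of 20979 genes in the deposited table whose level, averaged across those 18 libraries, reached 1 FPKM. FPKM is a level scaled to both transcript length and library size. The mice of every group were ICR and 10 weeks old at sampling. Beside the untreated control, the study held 5 groups of 3 libraries: high-fat diet alone (HFD), high-fat diet with the control FMT (HFD-conFMT), the same diet with an FMT labelled AOS 10 mg/kg (HFD-AOSFMT), the diet plus AOS itself at that dose (HFD-AOS), and AOS without the diet (AOS). The labels use the short forms AOS and FMT without writing them in full. The comparison therefore changes the diet and the FMT together, and it can show only their joint difference from control. Whether the 3 libraries of a group are 3 animals is not in the labels. The p-values therefore reflect only how far these libraries lie apart, which may be technical in part.

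The testis holds seminiferous tubules, in which germ cells pass from spermatogonia through meiosis to round and then elongating spermatids beside supporting Sertoli cells, and an interstitium of steroid-producing Leydig cells, vessels and macrophages. Leydig cells draw on cholesterol for androgen synthesis, and maturing germ cells carry long polyunsaturated fatty acids, which desaturases and elongases make. Germ cells make up most of the organ, so a bulk library mostly reads their transcripts. In such a library fewer cells of a type and less RNA per cell cannot be told apart.

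The tissue label was met by Leydig and germ cell markers. Insl3 stood at 2672 to 3380 FPKM in the 6 libraries, Sycp3 at 175 to 195 and Prm1 at 11650 to 17540. Sertoli markers ranged widely, with Clu at 460 to 517, Cldn11 at 31.5 to 34.4 and Wt1 at 9.91 to 11.6 FPKM. The Sertoli markers Sox9, Fshr and Amh were low, at 2.39 to 3.31, 0.89 to 1.38 and 0.53 to 1.55 FPKM. The relative depth of the 6 libraries, read from the steps between low values, was 0.989 to 1.01, and the absolute depth is unknown. Epididymal Crisp1 was listed at 159 FPKM in control 3 and 104 FPKM in HFD-conFMT 2, and at 0.15 to 8.6 FPKM in the other 4 libraries, while Lcn5 and Lcn8 were at 0 in all 6. Adam7 and Rnase9, also epididymal, stood at 8.62 and 5.42 FPKM in control 3 and at 4.28 and 3.99 FPKM in HFD-conFMT 2, and at no more than 0.36 FPKM in the other 4. Protamine and transition protein transcripts made up 7.02 to 7.85% of summed FPKM in control and 8.41 to 8.98% in HFD-conFMT.

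Testis from HFD-conFMT held less RNA of 3 of 10 tissue kallikrein genes, of 4 of 19 fatty acid synthesis genes and of 3 of 25 cholesterol synthesis genes, where 0.847% of all genes fell. It held more RNA of 16 of 77 cytosolic ribosomal protein genes and of 8 of 77 nuclear oxidative phosphorylation genes, where 1.24% of all genes rose. Of the 10 kallikrein genes 1 rose. The lists were chosen with earlier results of these data known, so their shares beside all genes are a description and not a test. Of the genes counted here, only the 3 lower kallikreins passed after the length and GC adjustment given below. With limma on log2(FPKM + 1), 274 of 13105 genes passed an adjusted p under 0.05, which is 2.09% of those tested. Of these, 163 were higher in HFD-conFMT and 111 lower. The changes were small: the median absolute log2 fold change of the 274 was 0.27, with 254 under 0.5 and 4 at 1 or more. Because 1 is added to each value before the log is taken, the fold changes of low genes are understated. Values of the 2 groups did not overlap in any of the 274, but neither did they in 3741 genes in all, or 28.5% of those tested (12.7% higher and 15.9% lower in HFD-conFMT). Over all genes tested the median log2 fold change was -0.01, and 46.7% had a higher mean. Summed FPKM was 588081 to 602525 in control and 620856 to 632609 in HFD-conFMT, without overlap. This fit did not rescale the libraries to a common sum, and the part of the sums in the differences was not tested.

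Leaving out a compared library makes its group smaller, which by itself can make calls fewer. The part of any particular library in this was not tested. The number of genes called changed with the libraries in the fit. It was 6 without HFD-conFMT 2, 14 without HFD-conFMT 3, 82 without HFD-conFMT 1, 16 without control 3, 19 without control 2 and 123 without control 1. Libraries of the other groups, which share the estimate of the spread, moved it too: it was 592 without HFD-AOS 1, 175, 136 and 146 without HFD-AOSFMT 1, 2 and 3, and 163 and 135 without AOS 1 and 3. Without both libraries in which Crisp1 stood high, control 3 and HFD-conFMT 2, 4 genes passed, namely Klk1b21, Klk1b24, Nt5c and the predicted gene Gm21794, which was not among the 274. Klk1b21, Nt5c and Hist2h2aa1, a histone gene named after its values were seen, were among the genes that passed in all 18 fits that left out 1 library. Quantile normalization gave 204 calls, of which 71 were higher, so 34.8% of calls were higher against 59.5% without it.

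**Figure D1:**
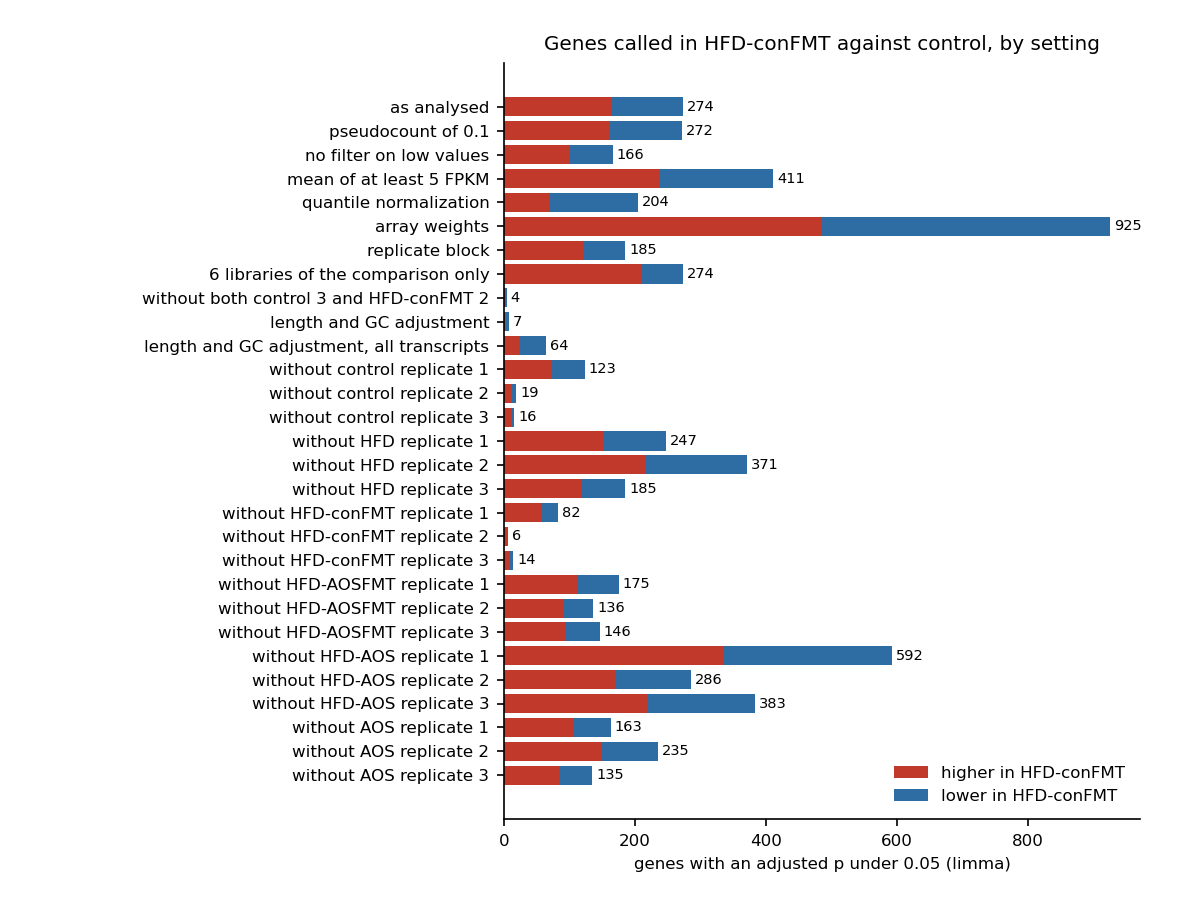
Number of genes with an adjusted p under 0.05 in HFD-conFMT against control (horizontal axis) under each setting (vertical axis), split by direction. The analysis as made gives 274 genes, and leaving out 1 library gives 6 to 592.

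Fold change also followed transcript length. Over 12869 genes with a known length, Spearman's rho between log2 fold change and length was -0.48, across genes of the same 6 libraries. Called rises had a median length of 851 bases and called falls one of 4868 bases, against 2490 for all genes. Genes of 165 to 1529 bases held 132 of the called rises and 6 of the falls, and genes of 3756 bases or more held 4 rises and 79 falls. Within each library, deviations from a gene's mean over the 18 libraries followed length with rho 0.22, 0.40 and 0.33 in control. In HFD-conFMT rho was -0.12, -0.29 and -0.29, so the groups did not overlap in this respect. Fold change followed GC content as well, with rho 0.25, and median GC content was 53.6% in called rises and 46.2% in called falls. The deviations followed GC content with rho -0.27 to -0.11 in control and 0.08 to 0.15 in HFD-conFMT, also without overlap. After a smooth trend on length and GC content was removed from each library, 7 genes passed: Klk1b21, Klk1b24, Klk1b27, Polr2a and Ecsit were lower, and Dnajb1 and Taf10 higher (Polr2a, Ecsit and Taf10 named after their values were seen). A first version of this adjustment, with lengths over all annotated transcripts instead of the basic set, gave 64 calls, and the basic set was adopted after both had been seen. What part length or GC content plays in the groups below was not tested beyond this.

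**Figure D2:**
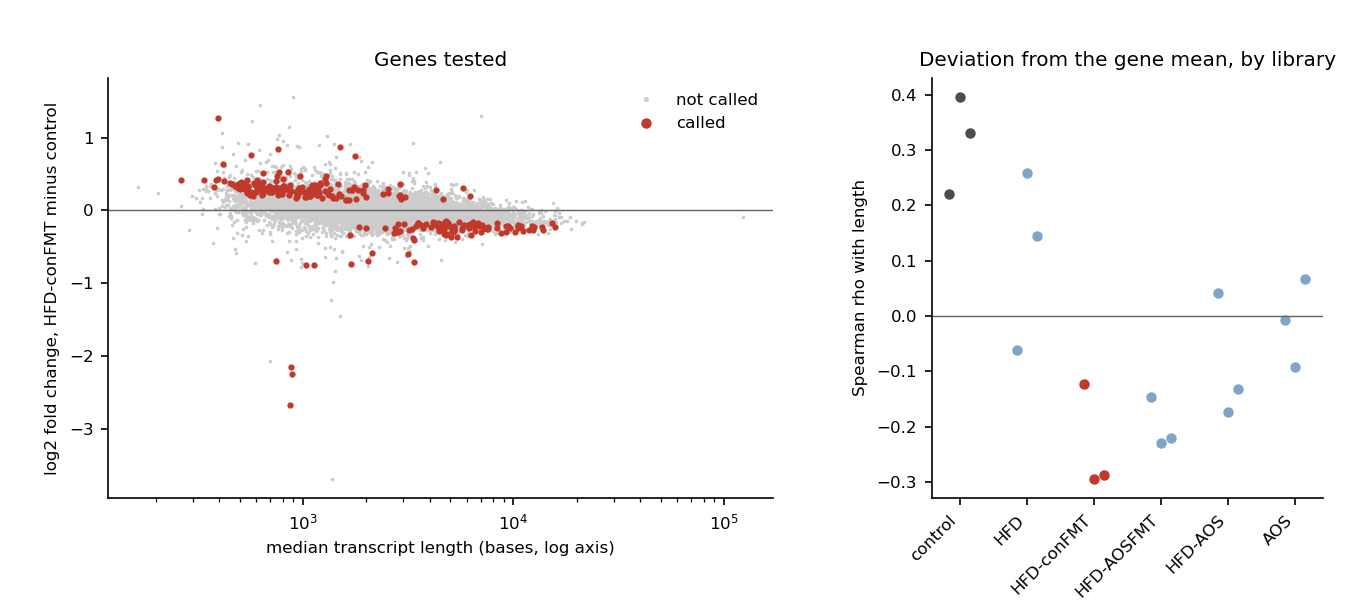
Left, log2 fold change of each gene tested (vertical axis) against its median transcript length in bases (log axis), called genes in red. Right, Spearman's rho between length and the deviation of a library from the gene means, 1 point a library: control lies at 0.22 to 0.40 and HFD-conFMT at -0.29 to -0.12.

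The strongest difference was in the tissue kallikreins, a family of secreted serine proteases whose genes lie side by side on chromosome 7. Klk1b21, Klk1b24 and Klk1b27, which are known from mouse Leydig cells, all fell, from group means of 21.3, 22.3 and 16.6 FPKM to 2.53, 4.15 and 2.65 FPKM. The 3 genes lie on the plus strand of GRCm38 in one cluster, Klk1b27 at chr7:44052290-44056712, Klk1b21 at chr7:44102328-44106583 and Klk1b24 at chr7:44188236-44192455. Their promoter windows (RefSeq, GRCm38.p6, 250 bases before to 50 after the start, plus strand) are shown because the 3 fell together and are close copies; capitals mark the 89 bases that all 3 share letter for letter.
Klk1b27, chr7:44052040-44052339: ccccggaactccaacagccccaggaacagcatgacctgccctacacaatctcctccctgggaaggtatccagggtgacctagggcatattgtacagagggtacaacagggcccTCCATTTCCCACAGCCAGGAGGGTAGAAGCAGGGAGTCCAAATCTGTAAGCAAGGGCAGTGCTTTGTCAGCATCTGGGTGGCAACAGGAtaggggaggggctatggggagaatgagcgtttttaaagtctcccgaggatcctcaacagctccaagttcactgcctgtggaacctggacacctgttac
Klk1b21, chr7:44102042-44102341: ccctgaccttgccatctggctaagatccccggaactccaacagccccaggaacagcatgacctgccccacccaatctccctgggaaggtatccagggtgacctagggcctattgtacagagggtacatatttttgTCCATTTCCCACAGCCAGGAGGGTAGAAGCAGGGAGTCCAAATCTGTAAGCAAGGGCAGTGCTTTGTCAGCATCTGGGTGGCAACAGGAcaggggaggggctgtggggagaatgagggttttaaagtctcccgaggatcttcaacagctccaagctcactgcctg
Klk1b24, chr7:44187986-44188285: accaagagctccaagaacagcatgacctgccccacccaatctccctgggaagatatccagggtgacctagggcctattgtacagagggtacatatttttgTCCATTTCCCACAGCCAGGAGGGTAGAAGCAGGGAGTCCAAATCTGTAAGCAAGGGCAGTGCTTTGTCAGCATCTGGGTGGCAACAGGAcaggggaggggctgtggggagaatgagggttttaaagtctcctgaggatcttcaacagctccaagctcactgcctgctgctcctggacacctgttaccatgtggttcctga

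Aligned with gaps, the windows of Klk1b21 and Klk1b24 were 97.7% identical over 265 bases, those of Klk1b21 and Klk1b27 94.5% over 274, and those of Klk1b24 and Klk1b27 91.3% over 286. The shared stretch begins 115 bases before the start of Klk1b21, 137 before that of Klk1b27 and 150 before that of Klk1b24. The start that sets the Klk1b21 window lies before the gene start printed above, chr7:44102328. For Klk1b24 and Klk1b27 the starts agree, so the distance for Klk1b21 is not comparable with theirs. The TATA box letters TATAAA, searched on both strands, were in the windows of 0 of 10 kallikrein genes. They were in those of 9.1% of the 10305 tested genes with a promoter window, and in 13.6% of all 32851 windows. This says only that these letters are not in the kallikrein windows.

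Klk1b21 was at 26.5, 21.6 and 15.95 FPKM in control and at 3.28, 1.44 and 2.86 FPKM in HFD-conFMT, a log2 fold change of -2.68 ± 0.29 (SE, adjusted p = 0.00155, limma). Its highest HFD-conFMT value was well under its lowest control value, and it passed in all 28 alternative settings, with adjusted p-values up to 0.0268. Klk1b24 was at 29.6, 23.4 and 13.7 FPKM in control and at 5.81, 3.46 and 3.17 FPKM in HFD-conFMT (log2 fold change -2.15 ± 0.31, adjusted p = 0.00757). It passed in 27 of the 28 settings, the exception being without HFD-conFMT 2 (adjusted p = 0.0531). Klk1b27 was at 22.4, 16.8 and 10.7 FPKM in control and at 3.45, 1.57 and 2.94 FPKM in HFD-conFMT (log2 fold change -2.25 ± 0.38, adjusted p = 0.0155). Klk1b27 did not pass without control 2, HFD-conFMT 2 or HFD-conFMT 3, nor without control 3 and HFD-conFMT 2 together (adjusted p up to 0.121). In each of the 3 genes control 3 held the lowest control value. The lengths of these 3 genes were 871 to 889 bases, and the 3220 genes of 165 to 1529 bases had a median log2 fold change of 0.09. The part of length in the falls of these 3 genes was not tested beyond the length and GC adjustment.

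Of the 10 family members tested, 1 rose and 3 fell. Klk1b8 rose from 85.8, 81.7 and 75.1 FPKM to 99.7, 101.9 and 99.9 FPKM (log2 fold change 0.31 ± 0.07, adjusted p = 0.0423). Klk1b26 was at 6.36, 5.74 and 4.48 FPKM in control and at 1.49, 1.59 and 4.40 FPKM in HFD-conFMT, and Klk1b4 at 1.98, 2.56 and 1.79 against 3.79, 3.83 and 3.06 FPKM, with adjusted p-values of 0.143 and 0.0774. Klk1, Klk1b3, Klk1b5 and Klk1b9 overlapped between the groups. Klk1b22 was under the level filter, at 4.26, 3.43 and 0.92 FPKM in control and listed at 0 in all 3 HFD-conFMT libraries, and it was called lower when no filter was used (adjusted p = 0.033). Klk1b16, also under the filter, was at 2.46, 1.10 and 1.37 FPKM in control and at 0.72, 1.17 and 0.63 FPKM in HFD-conFMT, with overlap. How reads that match several copies were assigned is not given in the sources used here, so the division of the signal among these paralogs is uncertain.

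**Figure D3:**
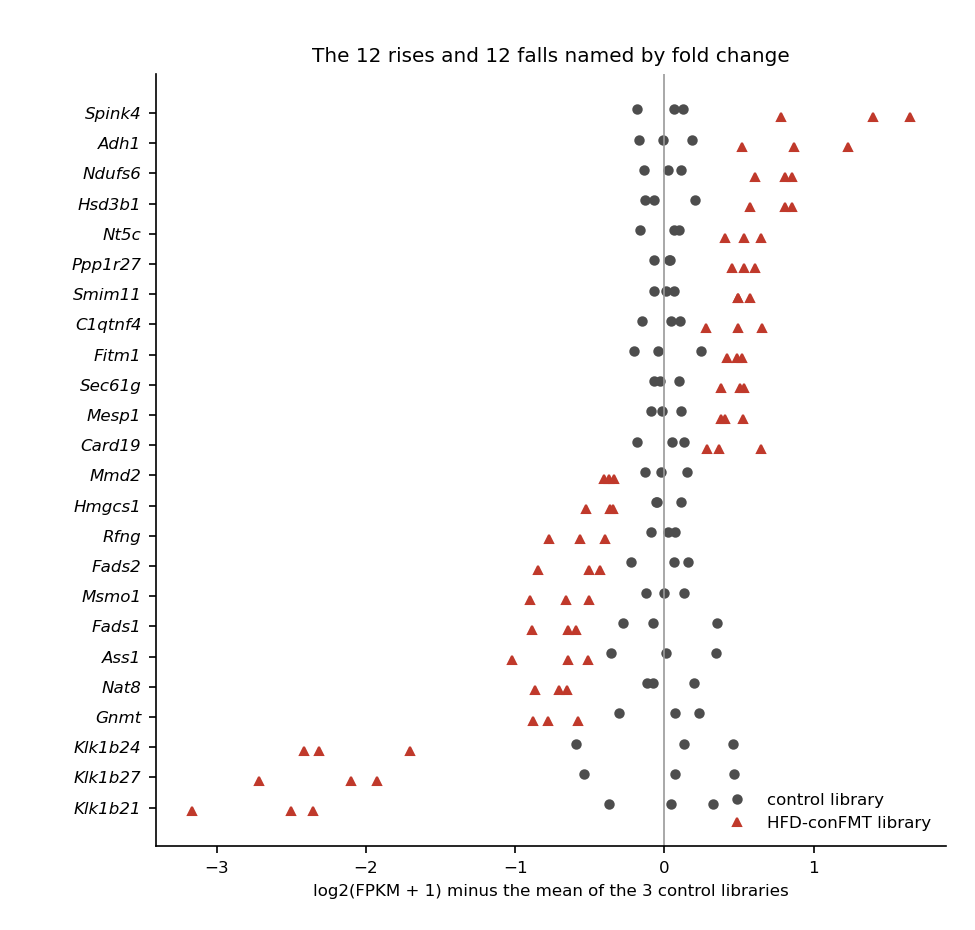
Values of the 12 rises and 12 falls of largest fold change, as log2(FPKM + 1) minus the mean of the control libraries (horizontal axis), 1 point a library. The 3 and 3 values do not overlap in any of the 24, and Klk1b21, Klk1b24 and Klk1b27 lie farthest from control.

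Fatty acid synthesis genes were lower as a group in HFD-conFMT. Of 19 tested, 4 fell and 0 rose, 16 had a lower mean, and the median log2 fold change was -0.13, against -0.01 over all genes tested. Fads1 and Fads2, neighbouring desaturases of polyunsaturated fatty acid synthesis on chromosome 19, fell most. Fads1 was at 35.2, 30.6 and 47.9 FPKM in control and at 23.5, 19.7 and 24.4 FPKM in HFD-conFMT (log2 fold change -0.71 ± 0.13, adjusted p = 0.0202, limma). Fads2 was at 102.0, 83.4 and 108.7 FPKM in control and at 68.4, 53.8 and 71.9 FPKM in HFD-conFMT (-0.59 ± 0.11, adjusted p = 0.0235). Both genes had their lowest value in HFD-conFMT 2, and both kept the groups apart.

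Elovl5, an elongase of polyunsaturated fatty acids, fell from 29.2, 31.3 and 30.9 FPKM to 23.6, 23.8 and 26.6 FPKM (log2 fold change -0.29 ± 0.07, adjusted p = 0.0486). Fasn, the fatty acid synthase, fell from 9.50, 9.60 and 9.57 FPKM to 7.83, 8.25 and 8.18 FPKM (-0.22 ± 0.05, adjusted p = 0.0392). These falls were smaller but the libraries of each group lay close together. Scd2, Acly and Elovl2 had no overlap between the groups and adjusted p-values of 0.0643, 0.0688 and 0.0901. Dgat1 and Dgat2, enzymes of triglyceride assembly, and Thrsp had higher values without overlap in HFD-conFMT and did not pass.

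Cholesterol synthesis genes showed the same direction. Of 25 tested, 3 fell and 0 rose, 21 had a lower mean, and the median log2 fold change was -0.16. Hmgcs1, the cytosolic synthase that feeds the mevalonate pathway, was at 32.2, 32.1 and 36.1 FPKM in control and at 25.8, 22.9 and 26.1 FPKM in HFD-conFMT (-0.41 ± 0.07, adjusted p = 0.0158). Msmo1, which removes methyl groups from sterol intermediates, was at 22.5, 20.6 and 24.7 FPKM against 13.9, 11.6 and 15.6 FPKM (-0.69 ± 0.13, adjusted p = 0.0216). Lss, the lanosterol synthase, was at 3.91, 3.71 and 4.56 FPKM against 3.20, 2.68 and 3.26 FPKM (-0.32 ± 0.08, adjusted p = 0.0462). For all 3 the HFD-conFMT libraries lay below every control library, with HFD-conFMT 2 lowest.

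Further members lay apart between the groups without passing, among them Mvd (adjusted p = 0.0504), Sc5d (0.0542), Insig1 (0.0812) and Dhcr7 (0.106). In all 12 of the 25 had no overlap, each of them lower in HFD-conFMT, where 15.9% of all genes tested were lower without overlap. The pathway did not move as one: Fdft1, which makes squalene, Fdps, which makes farnesyl diphosphate, and Cyp51, a sterol demethylase, overlapped between the groups, with log2 fold changes of 0.02, 0.03 and -0.07. Srebf2, the transcription factor that drives the pathway, differed by -0.03 on the log2 scale.

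The promoter table held 18 of the tested cholesterol synthesis genes and 14 of the fatty acid synthesis genes. Hmgcs1 is shown because it had the lowest p of its list and its window was the only one of the 18 with the sterol regulatory element letters TCACNCCAC (N is any base), searched on both strands and in 1.24% of all windows. Capitals mark the match, which begins 137 bases before the start, in RefSeq GRCm38.p6, plus strand.
Hmgcs1, chr13:119690101-119690400: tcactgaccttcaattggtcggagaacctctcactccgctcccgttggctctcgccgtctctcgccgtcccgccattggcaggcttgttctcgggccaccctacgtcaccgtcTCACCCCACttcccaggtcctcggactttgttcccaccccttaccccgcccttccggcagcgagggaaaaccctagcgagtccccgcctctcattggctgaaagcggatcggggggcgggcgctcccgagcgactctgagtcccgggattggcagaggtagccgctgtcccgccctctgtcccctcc

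Of the 14 fatty acid synthesis genes, Mlxipl held these letters, and its level overlapped between the groups. The CCAAT box letters CCAAT occurred 4 times in the Hmgcs1 window and are in 37.4% of all windows. A match of letters is a description and not a bound site.

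The calls of lipid genes depended on the settings. After the length and GC adjustment none of the 7 passed, and with its first version 3 genes of each list did. The adjusted list medians were -0.10 for fatty acid synthesis and -0.18 for cholesterol synthesis, with 14 of 19 and 20 of 25 members lower. Without control 3 and HFD-conFMT 2 none passed and the medians were -0.10 and -0.11, and without HFD-conFMT 2 or without control 3 alone Fads1, Fads2, Hmgcs1 and Msmo1 did not pass either.

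Of the 6 adipocyte markers tested, only Fabp4 kept the groups apart, where 12.7% of all genes were higher without overlap. Fabp4, a fatty acid binding protein of adipocytes, was at 11.3, 3.84 and 6.86 FPKM in control and at 19.8, 27.4 and 19.1 FPKM in HFD-conFMT, with no overlap and an adjusted p of 0.157. All 6 adipocyte markers that were tested had a higher mean in HFD-conFMT, 5 of them under quantile normalization, and none passed. The summed level of Adipoq, Plin1 and Fabp4 was 13.9 to 23.6 FPKM in control and 33.0 to 39.5 FPKM in HFD-conFMT. Of these, Adipoq at 9.43 to 11.5 against 11.4 to 12.8 FPKM overlapped, as did Plin1 at 0.59 to 0.96 against 0.72 to 1.2 FPKM. Plin1, Cidec, Plin4 and Lep lay under the level filter, and Cidec overlapped between the groups too. Lep, the leptin gene, was listed at 0.10, 0.08 and 0.10 FPKM in control and at 0.43, 0.38 and 0.51 FPKM in HFD-conFMT. Lep and Plin4 passed in the limma fit when no filter was used (adjusted p = 0.0134 for Lep and 0.0367 for Plin4). The part of adipocyte transcripts in the lipid results was not tested.

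Leydig cell genes did not move in one direction. Of 20 tested, 1 rose and 0 fell, where 1.24% of all genes rose and 0.847% fell. In the mean 12 of the 20 were lower, with a median log2 fold change of -0.04. Under quantile normalization 0 rose and 1 fell. Hsd3b1, a dehydrogenase of steroid hormone synthesis, rose from 81.6, 64.5 and 67.5 FPKM to 105.7, 124.8 and 128.8 FPKM (log2 fold change 0.74 ± 0.18, adjusted p = 0.0486, limma). All 3 HFD-conFMT values lay above the control values, but the call held in only 10 of 28 alternative settings. Cyp17a1, which makes androgen precursors, was at 375, 307 and 362 FPKM in control and at 259, 214 and 292 FPKM in HFD-conFMT, without overlap and with an adjusted p of 0.0831. Star, which brings cholesterol into mitochondria, Cyp11a1, which cuts its side chain, and Insl3 overlapped between the groups, with log2 fold changes of -0.19, -0.34 and -0.02.

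Among the other falls of large size were 3 metabolic enzymes. Ass1, which joins citrulline and aspartate on the way to arginine, fell from 98.6, 76.2 and 124.8 FPKM to 62.1, 47.8 and 68.2 FPKM (-0.73 ± 0.17, adjusted p = 0.0424). Gnmt, a glycine methyltransferase that uses S-adenosylmethionine, fell from 3.94, 3.43 and 2.41 FPKM to 1.29, 1.45 and 1.82 FPKM (-0.75 ± 0.17, adjusted p = 0.0383). Nat8, an acetyltransferase of cysteine conjugates, fell from 3.80, 3.66 and 4.81 FPKM to 2.10, 1.77 and 2.22 FPKM (-0.74 ± 0.16, adjusted p = 0.0313). Gnmt and Nat8 were low in every library, so their change on this scale is understated. Rfng, a glycosyltransferase that modifies Notch receptors, and Mmd2 also fell, by 0.58 and 0.37 on the log2 scale. Of the alternative settings that gave a value, Rfng passed in 7 of 27, Ass1 in 14 of 28, Gnmt in 16 of 27, Nat8 in 19 of 27 and Mmd2 in 22 of 28. Rfng did not pass with a pseudocount of 0.1, no filter, quantile normalization or the replicate block, and none of the 5 passed after the length and GC adjustment or without HFD-conFMT 2.

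Among the rises the largest was Spink4, a Kazal-type inhibitor of serine proteases. It was at 4.19, 3.37 and 4.43 FPKM in control and at 7.53, 14.6 and 12.1 FPKM in HFD-conFMT (log2 fold change 1.27 ± 0.27, adjusted p = 0.0313, limma). Adh1, an alcohol dehydrogenase that also oxidizes retinol, rose from 12.95, 11.5 and 15.0 FPKM to 19.2, 31.95 and 24.6 FPKM (0.87 ± 0.19, adjusted p = 0.0382). For both genes HFD-conFMT 2 was highest, and neither passed without it, without HFD-conFMT 3 or without any 1 control library (adjusted p 0.0597 to 0.131 for Spink4 and 0.0741 to 0.147 for Adh1). Both calls were also lost under both versions of the length and GC adjustment and without control 3 and HFD-conFMT 2 together. Adh1 did not pass with no filter, with the replicate block or with the 6 libraries alone either. In all, Spink4 passed in 20 of 28 settings and Adh1 in 17. Nt5c, a nucleotidase of deoxyribonucleotides, rose from 22.3, 18.45 and 21.7 FPKM to 30.5, 27.75 and 33.1 FPKM (0.53 ± 0.08, adjusted p = 0.00757) and passed in 27 of 28 settings, the length and GC adjustment being the exception (adjusted p = 0.0597).

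Apart from Ndufs6, given below with oxidative phosphorylation, the remaining named rises were between 0.43 and 0.53 on the log2 scale. Sec61g, a subunit of the channel that passes proteins into the endoplasmic reticulum, rose from 20.8, 21.4 and 23.5 FPKM to 28.7, 31.5 and 32.2 FPKM (adjusted p = 0.00893). Fitm1, which acts in lipid droplet formation, rose from 4.86, 5.54 and 6.99 FPKM to 8.01, 8.67 and 8.45 FPKM (adjusted p = 0.0351). C1qtnf4, a secreted C1q-like protein, Ppp1r27, a protein phosphatase regulator, Smim11, Mesp1 and Card19 completed the group. These 5 and Fitm1 did not pass under either version of the length and GC adjustment or without HFD-conFMT 2, and Mesp1 and Card19 passed in 11 and 13 of 28 settings. Sec61g passed in 24, the exceptions including that adjustment and the fit without HFD-conFMT 2.

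Cytosolic ribosomal protein genes were higher in HFD-conFMT as a group. Of 77 tested, 16 rose and 0 fell, 73 had a higher mean, and the median log2 fold change was 0.20. Rpl13 was at 398, 386 and 394 FPKM in control and at 469, 488 and 503 FPKM in HFD-conFMT (0.31 ± 0.05, adjusted p = 0.00903, limma), and Rps13 at 256, 270 and 254 against 315, 327 and 322 FPKM (0.30 ± 0.05, adjusted p = 0.0132). Rpl41, the most abundant of the 16, was at 1005, 927 and 1003 FPKM against 1212, 1278 and 1318 FPKM (0.38 ± 0.08, adjusted p = 0.0313).

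Nuclear genes of oxidative phosphorylation followed the same course. Of 77 tested, 8 rose and 0 fell, 74 had a higher mean, and the median was 0.19. Ndufs6, a subunit of respiratory complex I, rose from 76.1, 81.05 and 68.0 FPKM to 114, 132 and 136 FPKM (0.76 ± 0.15, adjusted p = 0.0282). Atp5j, a subunit of the ATP synthase, rose from 178, 182 and 174 FPKM to 209, 223 and 215 FPKM (0.28 ± 0.05, adjusted p = 0.0235). The other 6 were Ndufa4, Ndufb2, Ndufb7, Ndufv3, Uqcrc1 and Cox5b, at log2 fold changes of 0.14 to 0.40. Of 77 mitochondrial ribosomal protein genes 3 rose, Mrpl53, Mrpl54 and Mrpl57, and 0 fell, where 1.24% of all genes rose. In the mean 64 of these 77 were higher, with a median of 0.12.

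These 3 lists hold short genes, with median lengths of 774, 742 and 1226 bases against 2490 over all genes. After the length and GC adjustment 0 of their members passed in the limma fit, and the medians were 0.08, 0.05 and 0.06. With the first version of that adjustment 2, 1 and 1 members passed, and the medians were 0.13, 0.11 and 0.09. In both versions most members stayed higher, at 63, 60 and 54 of 77 in the basic version. Without control 3 and HFD-conFMT 2 none passed, while the medians were 0.21, 0.17 and 0.11. Under quantile normalization 3, 4 and 2 members rose and the medians were 0.12, 0.13 and 0.12.

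**Figure D4:**
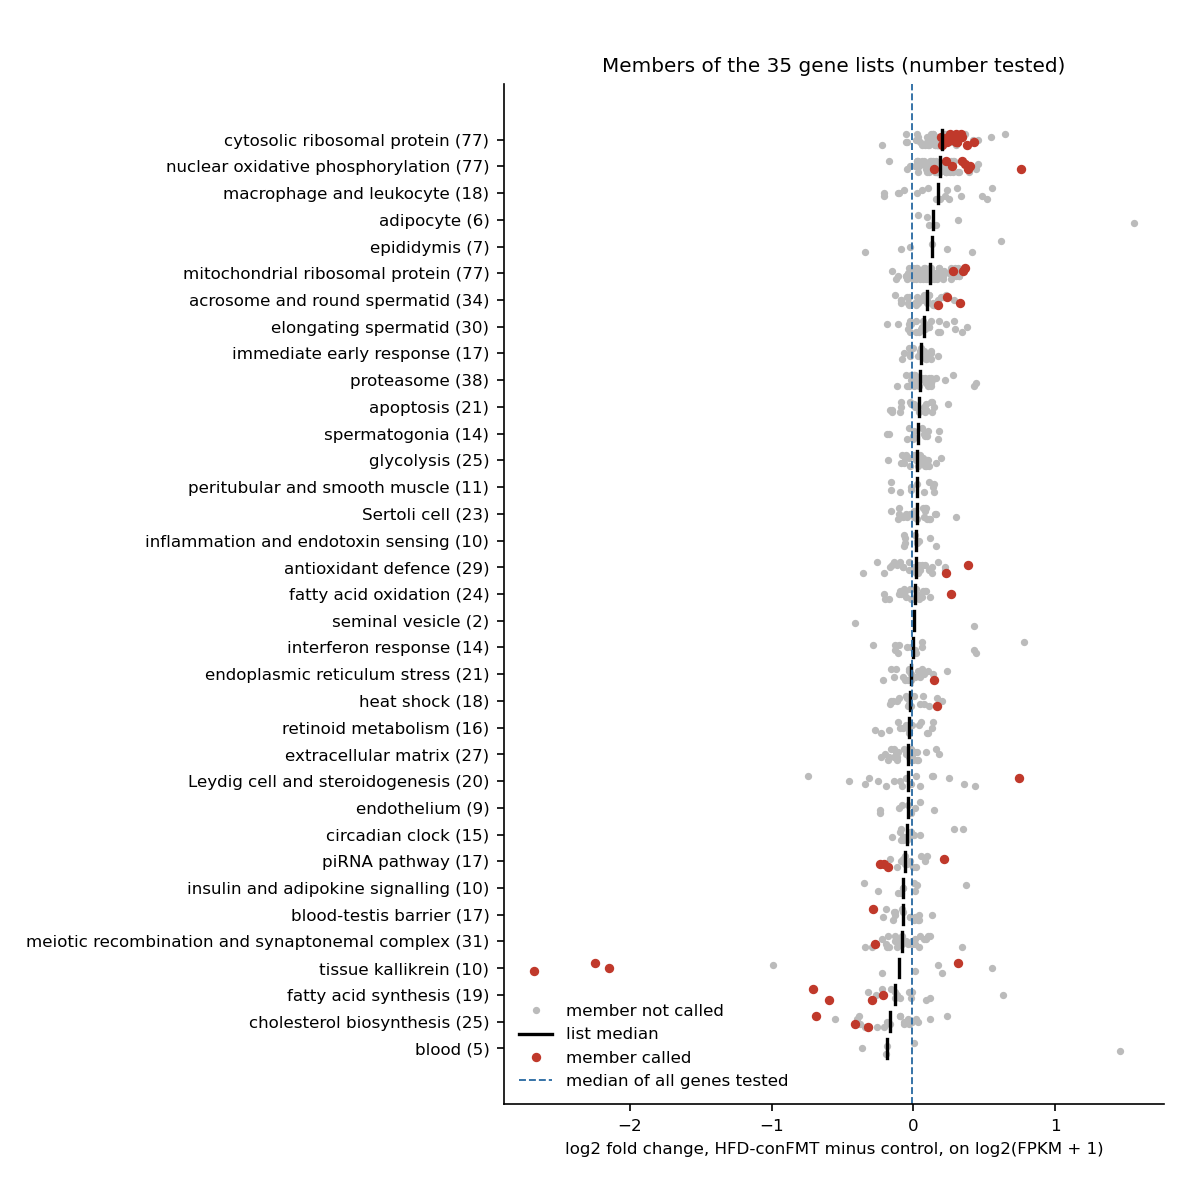
Log2 fold change, HFD-conFMT minus control, of each tested member of the 35 gene lists (grey, not called; red, called), with the list median as a black bar and the median of all genes tested, -0.01, as a dashed line. Cytosolic ribosomal and oxidative phosphorylation genes lie to the right at medians of 0.20 and 0.19, and lipid synthesis genes to the left at -0.13 and -0.16.

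Of 34 acrosome and round spermatid genes 3 rose and 0 fell, where 1.24% of all genes rose. Their median log2 fold change was 0.09, and 26 were higher in the mean, against 46.7% of all genes. Izumo2, a sperm protein of the Izumo family, rose from 138, 133 and 144 FPKM to 174, 185 and 162 FPKM (0.33 ± 0.05, adjusted p = 0.0119, limma), and Izumo4 rose from 96.1, 98.9 and 97.5 FPKM to 106.9, 119.4 and 118.7 FPKM (adjusted p = 0.0488). Tssk2, a testis-specific serine kinase, rose from 353, 349 and 364 FPKM to 393, 402 and 407 FPKM (0.18 ± 0.04, adjusted p = 0.0423). Of 30 elongating spermatid genes none passed, and their median of 0.08 became -0.01 under quantile normalization. Prm1, which packs sperm DNA, and Tnp1, which precedes it there, were higher without overlap and had adjusted p-values of 0.0895 and 0.106.

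Of 31 meiotic genes 1 fell, which is 3.23% and near the 2.09% of all genes called, and the median was -0.08. Sycp2, a lateral element protein of the synaptonemal complex, fell from 84.4, 89.9 and 85.0 FPKM to 74.3, 70.4 and 69.5 FPKM (-0.27 ± 0.05, adjusted p = 0.0235). Sycp1, of the transverse filaments, was at 65.7, 74.5 and 66.3 FPKM against 53.1, 62.2 and 52.9 FPKM and had an adjusted p of 0.0928, and Sycp3 overlapped. In the piRNA pathway, which silences transposons in germ cells, 3 of 17 genes fell and 1 rose. Of all genes 0.847% fell and 1.24% rose. Piwil1 fell from 110.7, 114.4 and 119.9 FPKM to 99.7, 101.2 and 103.7 FPKM (-0.18 ± 0.04, adjusted p = 0.0411). Piwil2, another Argonaute-family protein, and Mybl1, a transcription factor of pachytene spermatocytes, fell by 0.21 and 0.24, while Gtsf1, a PIWI cofactor with a short transcript of 761.5 bases, rose by 0.22. No gene of these lists passed after the length and GC adjustment, and 1 piRNA gene passed, lower, with its first version. The adjusted medians were 0.03 for acrosomal, -0.05 for meiotic and -0.02 for piRNA genes.

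Of 23 Sertoli cell genes none passed, where 2.09% of all genes did, and their median was 0.02, or -0.0058 after the length and GC adjustment. Of 17 genes of the blood-testis barrier 1 fell, where 0.847% of all genes fell. Tjp1, a tight junction scaffold, was at 18.85, 19.0 and 20.1 FPKM in control and at 16.2, 15.3 and 15.5 FPKM in HFD-conFMT (-0.29 ± 0.06, adjusted p = 0.0313, limma). Of 18 macrophage and leukocyte genes none passed, but 13 had a higher mean and 9 were higher without overlap, against 12.7% of all genes tested, with a median of 0.17. Tyrobp, a signalling adaptor of myeloid cells, was at 3.57, 2.79 and 4.52 FPKM against 4.91, 5.58 and 5.70 FPKM (adjusted p = 0.132). Peritubular, endothelial, extracellular matrix, spermatogonial, blood, epididymal and seminal vesicle lists held no called gene.

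Stress and defence lists held 4 calls, all rises. They were 2 of 29 antioxidant, 1 of 21 endoplasmic reticulum stress and 1 of 18 heat shock genes, where 1.24% of all genes rose. In these lists 12, 11 and 10 members had a lower mean, and the median log2 fold changes were 0.02, -0.02 and -0.02. Mt2, a metallothionein that binds zinc, rose from 435, 363 and 376.5 FPKM to 496, 540 and 493 FPKM (0.38 ± 0.08, adjusted p = 0.0251), and Sod1, the cytosolic superoxide dismutase, rose by 0.23 (adjusted p = 0.0423). Dnajb1, a co-chaperone of heat shock proteins, rose from 106.6, 103.1 and 103.2 FPKM to 118.8, 115.1 and 116.9 FPKM (0.16 ± 0.03, adjusted p = 0.0182), and with 2925 bases it also passed after the length and GC adjustment. Dnajb1 was not called under quantile normalization, nor without control 2, control 3 or any 1 of the HFD-conFMT libraries (adjusted p 0.0531 to 0.0828), nor without control 3 and HFD-conFMT 2 together or with the 6 libraries alone. Manf, a secreted protein of the endoplasmic reticulum, rose by 0.14 (adjusted p = 0.0486). The lists of inflammation and endotoxin sensing, interferon response, immediate early response and apoptosis held 0 calls of 10, 14, 17 and 21 genes. Ech1 was the 1 call among 24 fatty acid oxidation genes, where 2.09% of all genes were called. It was higher by 0.26 (adjusted p = 0.0462, limma). The glycolysis, proteasome, retinoid, clock and insulin lists held no call.

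To ask what the control FMT added to the diet, HFD-conFMT was set against HFD in the same fit. No gene passed (0.0%, limma), while 1607 had an unadjusted p under 0.05, and the lowest adjusted p was 0.0651. With array weights 9 genes passed, without HFD-AOS 1, a library of neither group, 17 did, and without HFD 2 or without AOS 3 it was 1. HFD alone against control gave 0 calls (0.0%) and 884 genes at an unadjusted p under 0.05. That 274 genes passed for HFD-conFMT and none for HFD does not show that the effects differ, since the direct contrast passed for none of them. These comparisons share libraries, so their values are given side by side only. Log2 fold change followed length with rho -0.34 for HFD-conFMT against HFD and -0.25 for HFD against control. With GC content rho was 0.29 and -0.001. The length and GC adjustment left both comparisons at 0 calls, and the part of length and GC content in them was not tested further.

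For Klk1b21, HFD libraries averaged 8.27 ± 3.54 FPKM (SD, n = 3), between control at 21.3 ± 5.28 and HFD-conFMT at 2.53 ± 0.96. Its log2 fold change was -1.31 ± 0.29 for HFD against control (adjusted p = 0.583) and -1.37 ± 0.29 for HFD-conFMT against HFD (adjusted p = 0.122). For Msmo1 the same values were -0.17 and -0.52 ± 0.13 (adjusted p = 0.166), and for Fads2 -0.18 and -0.42 ± 0.11 (adjusted p = 0.191). Rpl13 and Dnajb1 came nearest to passing against HFD among the genes named above, with log2 fold changes of 0.27 and 0.17 and adjusted p-values of 0.0651. In HFD, Rpl13 averaged 403 FPKM and Dnajb1 103.9 FPKM, against 393 and 104.3 FPKM in control.

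**Figure D5:**
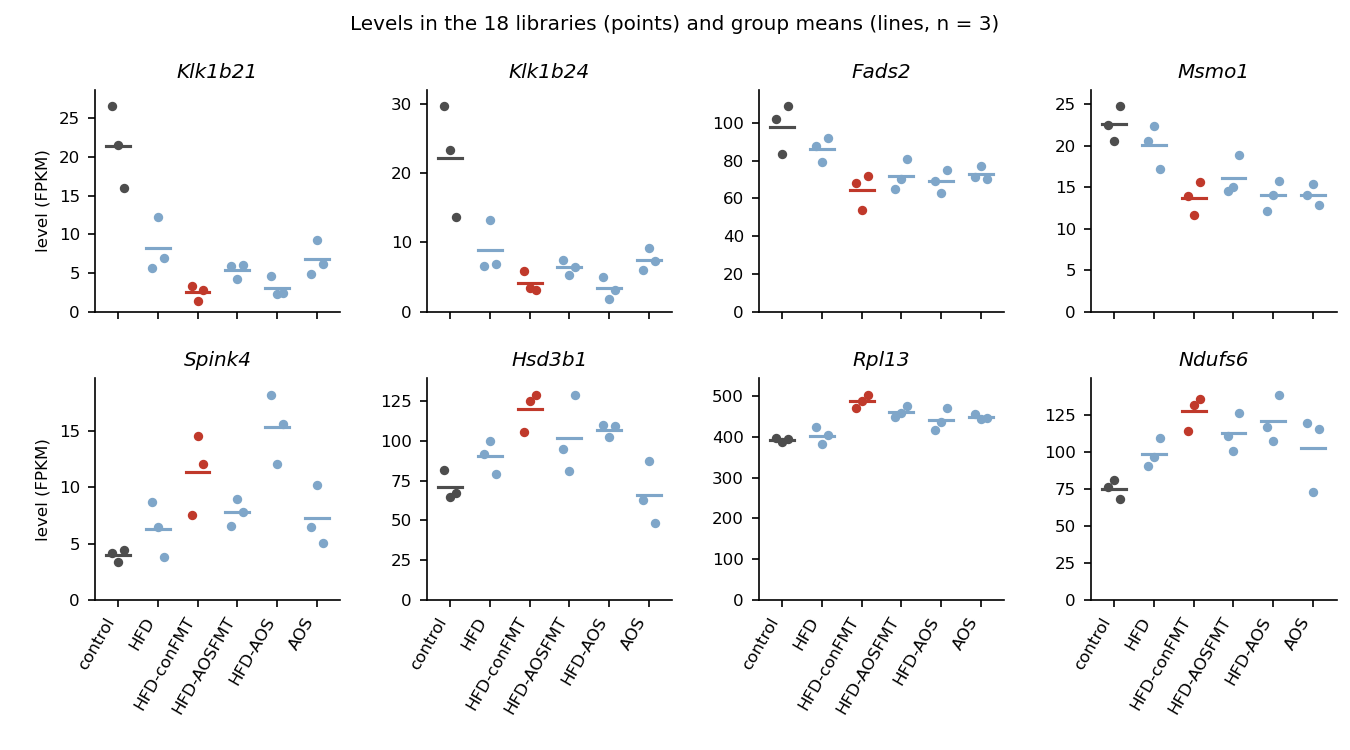
Levels in FPKM (vertical axis, from 0) of 8 genes in the 6 groups of 3 libraries, points for libraries and lines for group means. Klk1b21 averages 21.3 FPKM in control and 2.53 FPKM in HFD-conFMT, and every other group lies below control.

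Against HFD-AOSFMT, which tests whether the 2 FMT labels differ on the diet, 1 gene passed (0.00763%), and 409 had an unadjusted p under 0.05. That gene was Kap, at 31.5 to 37.7 FPKM in the 3 HFD-AOSFMT libraries and listed at 0 in HFD-conFMT and in control. For Klk1b21 the log2 fold change was -0.89 ± 0.29 (adjusted p = 0.9996) and for Hmgcs1 -0.14 ± 0.07 (0.9996). Klk1b24 averaged 6.41 ± 1.09 FPKM in HFD-AOSFMT (SD, n = 3), with a log2 fold change of -0.55 ± 0.31 and an adjusted p of 0.9996, and Fads2 averaged 72.0 ± 8.08 FPKM. A p that misses the threshold does not show that the groups are alike. Klk1b21, Klk1b24 and Msmo1 also had lower means in HFD-AOS and AOS than in control, at 3.10, 3.36 and 14.0 FPKM in HFD-AOS and 6.80, 7.50 and 14.1 FPKM in AOS. These groups were not tested against control here.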

How the data were processed

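RNA sequencing was done on frozen testis, 18 libraries in 6 groups of 3. Per the labels' protocols, 1 ug of total RNA went into each library. The submitters' processing notes name Bowtie 0.12.2 and mm10; the counting tool, annotation and strand were not given in the sources used here. Values that the authors deposited were read as FPKM, made by them from the mapped reads before deposit, although the file header names no unit: sums differ between libraries (588081 to 637005) and the smallest steps differ between genes. TPM with genes left out would look alike. No counts were used, and the absolute depth is unknown. Of 20985 entries, 6 with 3 repeated symbols were left out.

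Genes averaging 1 FPKM or more across all 18 libraries were fitted on log2(FPKM + 1) with limma 3.58.1 in R 4.3.3 (6 group means, moderated with trend, 12 residual degrees of freedom, two-sided, Benjamini-Hochberg over 13105 genes, threshold 0.05). The script was tested on simulated data. Lengths and GC content were medians over GENCODE M21 basic transcripts, known for 98.2% of genes tested. Groups came from the treatment labels. Replicate numbers were not used to pair the libraries in this fit. Same-numbered deviations of control and HFD-conFMT correlated at 0.17, -0.24 and -0.01, and differently numbered ones at -0.34 to 0.32. Such values from 3 libraries a group cannot settle whether the numbers pair the libraries.

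Genes were named by a rule: 12 rises and 12 falls, the called genes farthest from 0 that had no overlap, reached 2 FPKM in the higher group's mean and had no predicted, clone or date-like name, the 2 members of lowest p of each of 35 lists, and a panel of 12 genes. Other genes were named after their values were seen. The members, lists and rules were chosen with earlier results of these data known. Alternatives were another pseudocount, filters, quantile normalization, array weights, a replicate block, fewer libraries, each library left out, and the length and GC adjustment. The first version of that adjustment used all transcripts, and the basic set was adopted after both versions had been seen. Some members of the lists are not reported here.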

Additional observations from a re-analysis of the deposited data

Results flagged for a closer look

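Kap differed between the FMT groups by the test of that difference itself, HFD-conFMT against HFD-AOSFMT (adjusted p = 1.48e-16, limma). It averaged 35.16 FPKM in HFD-AOSFMT, at 37.7, 31.5 and 36.3 FPKM in its 3 libraries, and was listed at 0 in 14 of the other 15 libraries and at 0.15 FPKM in HFD 3. No fold is given against groups at 0, and Kap took no part in the difference between HFD-conFMT and control.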

How the results depend on the processing

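The 274 calls of HFD-conFMT against control became 166 with no filter on low values, 925 with array weights, 7 after the length and GC adjustment, 64 with that adjustment over all transcripts, and 4 without both control 3 and HFD-conFMT 2. The cause was not tested. Leaving out 1 library gave 6 to 592 calls. With the replicate number as a replicate block 185 genes passed, 169 of them among the 274. Deviations of same-numbered control and HFD-conFMT libraries correlated at 0.17, -0.24 and -0.01, which cannot settle whether the numbers pair the libraries. A pseudocount of 0.1 gave 272, a mean of at least 5 FPKM 411 and the 6 libraries alone 274, of which 131 were shared. HFD-conFMT against HFD went from 0 to 3 with no filter, 9 with array weights, 1 without both libraries, and 0 to 17 with 1 library left out. HFD-conFMT against HFD-AOSFMT went from 1 to 16 with no filter and stayed at 1 in the other settings run, and HFD against control stayed at 0. Some uncalled genes changed sign: Ceacam10 from -0.413 to 0.0618 without both libraries, and to between -0.900 and 0.511 with 1 library left out; Ier2 from 0.172 to -0.0261 without both; Insl3 from -0.0236 to between -0.0886 and 0.0809 with 1 library left out; and Crisp1 from 0.411 to between -1.17 and 2.502. Without a known depth, differences in genes of a few FPKM cannot be given a counting error.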
